A study of Homo sapiens with 9 samples.

Results

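The transcripts of the mitochondrial genome are made and kept by proteins that nuclear genes encode, and 10 such nuclear genes were followed in ACHN, a human renal carcinoma cell line, exposed to piericidin A. They were chosen by name from the log2 FPKM table (FPKM, fragments scaled to gene length and to a factor per library), and all 10 were found among its 18859 genes. The series holds 9 RNA-seq libraries in 3 groups of 3: cells with 0.1% DMSO, cells with 25 nM piericidin A and cells with 50 nM piericidin A. The compound blocks complex I of the respiratory chain at its ubiquinone site. All groups are the same line, grown adherent in MEM medium, and the labels give no DMSO content for the piericidin A groups. Exposure time, RNA selection and strandedness are not given in the sources used here, and no label ties the 3 replicates of a group to separate cultures, so p-values here measure only the spread between these libraries. Each library held 24365472 to 29245674 fragments in those 18859 genes. Of 10 renal and epithelial markers of the line, 9 reached 0.5 FPKM in every group and LRP2 had no value above 0. None of 5 leukocyte, 4 endothelial or 2 hepatocyte markers reached 0.5 FPKM. Of 5 fibroblast markers 2 reached it in DMSO and 1 at each dose, with a summed level of 2.54 to 2.67 FPKM in DMSO, 2.33 to 2.66 FPKM at 25 nM and 3.12 to 4.05 FPKM at 50 nM, and their part in the results was not tested.

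Mitochondrial DNA is a small circle transcribed from promoters on its heavy and light strands into long precursors, which are cut into mRNAs, rRNAs and tRNAs. Initiation needs the single-subunit RNA polymerase POLRMT, the packaging and activating protein TFAM and the promoter-melting factor TFB2M. TFB1M is a methyltransferase of the small ribosomal RNA, and the LRPPRC-SLIRP complex binds mature mRNAs, stabilises them and keeps them polyadenylated. POLG is the catalytic subunit of the DNA polymerase that copies the circle. NRF1 and ESRRA are transcription factors that drive nuclear genes of mitochondrial proteins, and PPRC1 is a coactivator of the PGC-1 family that works with NRF1.

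NRF1 recognises a GC-rich palindrome and ETS factors such as GABP recognise a purine-rich core, and both are known regulators of several of these genes. RefSeq promoters (250 bases before to 50 after the gene start, GRCh38.p14) were matched for 9 of the 10 genes, all except NRF1 itself, and searched on both strands. The NRF1 core GCGCATGC was found in the promoters of TFB1M, TFB2M, POLRMT and ESRRA, and in 3.02% of all 34943 promoters. In TFB1M and POLRMT it lay on both strands with the matches overlapping, which gives a palindrome of 10 letters, and 1.23% of all promoters held such an overlap. The ETS core CCGGAAG was found in those of TFB1M, POLRMT and SLIRP, and in 10.2% of all promoters. Among promoters of the 9037 tested coding genes with an entry these shares were 5.55%, 2.33% and 19.7%. TFAM, LRPPRC, POLG and PPRC1 held neither core. The following stretches are 5′ to 3′ on the gene's strand with the match in capitals. They come from genes called higher (POLRMT, SLIRP), called lower (TFB1M, TFB2M) and not called (ESRRA). The ETS matches of TFB1M and POLRMT and a further NRF1 match of POLRMT are not shown. All stretches lie before the RefSeq start at chr6:155314597-155314626 (TFB1M), chr1:246566262-246566286 (TFB2M), chr19:633542-633571 (POLRMT, the overlapping match nearest the start), chr11:64305485-64305512 (ESRRA) and chr14:77708017-77708043 (SLIRP, ETS core). Those of TFB2M and POLRMT lie inside the gene body of the authors' table, which begins further upstream.
TFB1M: gcaggacttaGCGCATGCGCtctcagcacg
TFB2M: tccgctgttcGCATGCGCaggctct
POLRMT: ggcggcgcggGCGCATGCGCaggcgcgggc
ESRRA: cccctgctttGCATGCGCacggccggcc
SLIRP: accctctgatCCGGAAGcagattctct
POLRMT and TFB1M carry the same 10 letters, and the POLRMT mRNA was higher and the TFB1M mRNA lower than in DMSO at both doses. A match of letters describes the sequence only.

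With piericidin A some of the 10 genes were higher and others lower than in DMSO. POLRMT and SLIRP were higher and LRPPRC, TFB1M and TFB2M lower at both doses, TFAM was lower at 50 nM, NRF1 and PPRC1 were lower at 25 nM, and ESRRA was not called in any comparison. Tests were made with limma on log2(FPKM + 0.1), with p-values adjusted by the Benjamini-Hochberg method over all 15541 genes tested, and a gene was called changed at an adjusted p under 0.05. At 25 nM against DMSO 7 of the 10 were called, 2 higher and 5 lower, where 52.0% of all genes tested were called (26.3% higher and 25.8% lower). At 50 nM 7 of the 10 were called, 3 higher and 4 lower, against 60.7% of all genes (29.2% higher and 31.5% lower). Between 50 and 25 nM 5 of the 10 were called, 3 higher and 2 lower, against 33.5% of all genes (14.7% higher and 18.8% lower). The groups' libraries did not overlap for 7, 8 and 7 of the 10 genes in these comparisons, and for 62.6%, 70.4% and 45.4% of all genes. The shares of the 10 genes thus lay near those of all genes at both doses. The median size of the log2 fold change, without its sign, was 0.22, 0.28 and 0.17 over the 10 genes and 0.30, 0.36 and 0.20 over all genes in the same 3 comparisons. Both doses were compared with the same 3 DMSO libraries. Scaling the libraries by fragment totals without mitochondrial fragments moved the median log2 fold change of all genes at 50 nM against DMSO from 0.0049 to 0.12, and at 50 against 25 nM from -0.01 to 0.10. At 50 nM against DMSO that scaling called 5875 genes higher and 3584 lower, where the scaling of the deposited values called 4540 and 4901, and with mitochondrial fragments included the totals gave 5312 and 4108. At 50 against 25 nM these 3 scalings called 3475, 2288 and 3157 genes higher and 1111, 2917 and 1358 lower, in the same order. Scaling by TMM (trimmed mean of M-values) factors called 4529 genes higher and 4884 lower at 50 nM against DMSO. Between the doses it called 2267 and 2954, near the counts from the deposited values. Of the 10 genes themselves, 5 were called higher and none lower between the doses without mitochondrial fragments in the totals, 5 and 1 with them included, and 5 and 2 with a trend with gene length removed in each library. With TMM factors 3 were called higher and 2 lower, the same counts as with the deposited values.

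**Figure D1:**
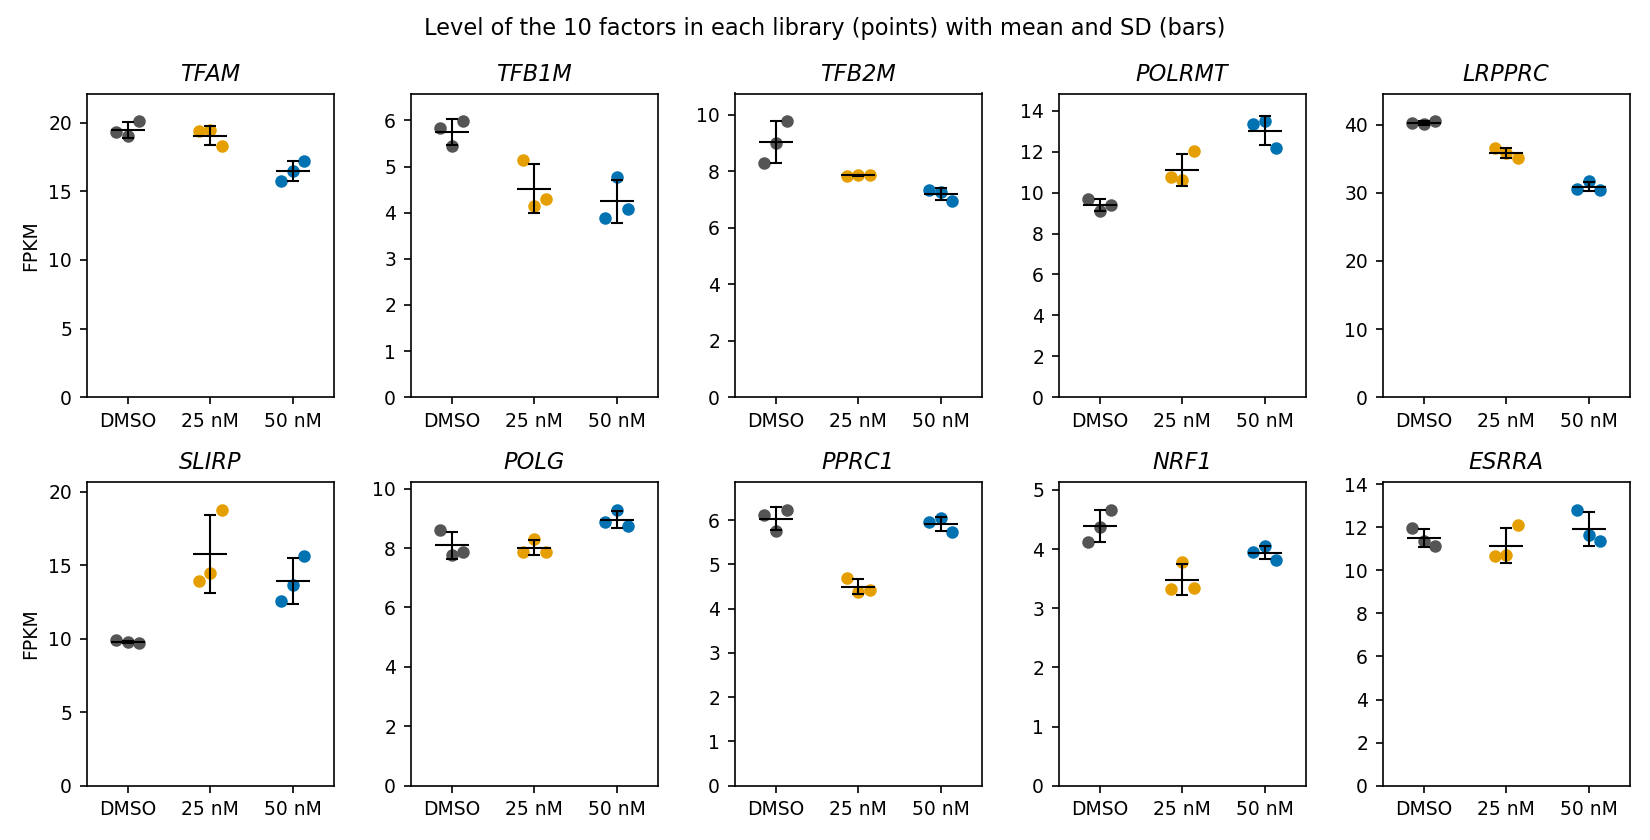
FPKM of the 10 genes in each library (points) by group (0.1% DMSO, 25 nM and 50 nM piericidin A, n = 3), with the mean (long bar) and SD (whiskers) and every axis starting at 0. POLRMT climbs from a mean of 9.39 to 13.02 FPKM and LRPPRC falls from 40.2 to 30.9 FPKM, while PPRC1 is low only in the 25 nM libraries.

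Among the initiation factors, TFAM (ENSG00000108064, chr10:58385022-58399221, plus strand, hg38) stood at 19.3, 19.0 and 20.1 FPKM in DMSO, 19.4, 19.5 and 18.3 FPKM at 25 nM, and 15.8, 16.5 and 17.2 FPKM at 50 nM. The 50 nM libraries were below all others, and the 25 nM libraries overlapped those of DMSO. The log2 fold change was -0.24 ± 0.046 (SE; adjusted p = 0.00162) at 50 nM and -0.03 (adjusted p = 0.584) at 25 nM. Between the doses the log2 fold change was -0.21 (adjusted p = 0.00869), and this call was lost when libraries were scaled by fragment totals with (-0.11, adjusted p = 0.114) or without (-0.09, adjusted p = 0.19) mitochondrial fragments.

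TFB2M (ENSG00000162851, chr1:246540560-246566324, minus strand) stood at 8.30, 9.01 and 9.77 FPKM in DMSO, 7.84, 7.87 and 7.87 FPKM at 25 nM, and 7.33, 7.28 and 6.96 FPKM at 50 nM. The 3 groups did not overlap. Its log2 fold change was -0.32 ± 0.059 (adjusted p = 0.00124) at 50 nM and -0.19 ± 0.059 (adjusted p = 0.0209) at 25 nM, and -0.13 (adjusted p = 0.124) between the doses. The 25 nM call was lost without DMSO replicate 2 (adjusted p = 0.0569), DMSO replicate 3 (0.0765) or 25 nM replicate 1 (0.0516).

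POLRMT (ENSG00000099821, chr19:617224-633604, minus strand), the polymerase itself, stood at 9.69, 9.08 and 9.39 FPKM in DMSO, 10.8, 10.6 and 12.02 FPKM at 25 nM, and 13.4, 13.5 and 12.2 FPKM at 50 nM. Every 25 nM library was above every DMSO library and below every 50 nM library. The log2 fold change was 0.24 ± 0.061 (adjusted p = 0.00906) at 25 nM and 0.47 ± 0.061 (adjusted p = 0.000171) at 50 nM. The difference between the doses was 0.23 (adjusted p = 0.0204), and it was no longer called with only the 6 libraries of those groups (adjusted p = 0.053), or without 25 nM replicate 1 (0.0653) or 2 (0.0624), or 50 nM replicate 1 (0.0731) or 2 (0.0669). The ratio of POLRMT to TFAM FPKM, which sets the polymerase beside its activator, was 0.482 ± 0.0182 (SD, n = 3) in DMSO, 0.585 ± 0.0629 at 25 nM and 0.791 ± 0.072 at 50 nM, and that of POLRMT to TFB2M was 1.05 ± 0.109, 1.42 ± 0.0977 and 1.81 ± 0.0517.

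TFB1M (ENSG00000029639, chr6:155257509-155314493, minus strand), the rRNA methyltransferase, stood at 5.83, 5.45 and 5.99 FPKM in DMSO, 5.13, 4.14 and 4.29 FPKM at 25 nM, and 3.89, 4.78 and 4.07 FPKM at 50 nM. Both treated groups were below DMSO, and they overlapped each other. Its log2 fold change was -0.35 ± 0.098 (adjusted p = 0.0151) at 25 nM and -0.43 ± 0.098 (adjusted p = 0.00394) at 50 nM, and -0.09 (adjusted p = 0.517) between the doses. Without DMSO replicate 3 the 25 nM value was -0.32 (adjusted p = 0.0534), and without 25 nM replicate 1 the value between the doses was 0.0044. It was the gene with the fewest fragments here, at least 275 in a library, against up to 11537 for LRPPRC. Its gene body overlaps CLDN20 and TIAM2 on the opposite strand, at 0.544 and 0.168 FPKM on average.

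The partners of the mRNA-stabilising complex moved in opposite directions. LRPPRC (ENSG00000138095, chr2:43886508-43996005, minus strand), the large RNA-binding partner, stood at 40.2, 40.01 and 40.5 FPKM in DMSO, 36.6, 35.8 and 35.1 FPKM at 25 nM, and 30.6, 31.7 and 30.4 FPKM at 50 nM. The 3 groups were fully apart, in the order of dose. Its log2 fold change was -0.17 ± 0.034 (adjusted p = 0.00307) at 25 nM, -0.38 ± 0.034 (adjusted p = 1.9e-05) at 50 nM and -0.21 ± 0.034 (adjusted p = 0.002) between the doses. After a trend with gene length was removed in each library, the 25 nM value was 0.04 (adjusted p = 0.423) and the 50 nM value was -0.18 (adjusted p = 0.0024). Scaled by fragment totals without mitochondrial fragments, the value between the doses was -0.09 (adjusted p = 0.0732).

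SLIRP (ENSG00000119705, chr14:77708071-77761104, plus strand), the small partner, stood at 9.88, 9.79 and 9.74 FPKM in DMSO, 13.9, 14.5 and 18.8 FPKM at 25 nM, and 12.6, 13.7 and 15.7 FPKM at 50 nM. All 6 treated libraries were above DMSO, the doses overlapped, and 25 nM replicate 3 was the highest. The log2 fold change was 0.66 ± 0.11 (adjusted p = 0.00116) at 25 nM and 0.50 ± 0.11 (adjusted p = 0.00414) at 50 nM, and -0.16 (adjusted p = 0.289) between the doses. The ratio of LRPPRC to SLIRP FPKM was 4.10 ± 0.0482 (SD, n = 3) in DMSO, 2.32 ± 0.403 at 25 nM and 2.23 ± 0.255 at 50 nM. The SLIRP gene body overlaps SNW1, a splicing factor gene of the opposite strand at 24.5 FPKM on average, and in GENCODE 29 it shares 4.49% of its exon bases with SNW1 and 10.45% with C14orf178 on its own strand. Reads of these genes may be counted in SLIRP, and their part in the result was not tested.

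POLG (ENSG00000140521, chr15:89316305-89334861, minus strand), the DNA polymerase, stood at 8.62, 7.77 and 7.87 FPKM in DMSO, 7.87, 8.29 and 7.86 FPKM at 25 nM, and 8.86, 9.29 and 8.72 FPKM at 50 nM. The 50 nM libraries were above all others, by a narrow gap to DMSO replicate 1. Its log2 fold change was 0.15 ± 0.052 (adjusted p = 0.0355) at 50 nM against DMSO, 0.16 ± 0.052 (adjusted p = 0.0422) against 25 nM and -0.01 (adjusted p = 0.844) at 25 nM against DMSO. Both calls depended on the setting. The first was lost in 6 of 19 alternatives, among them those without DMSO replicate 2 (adjusted p = 0.127) or 3 (0.113) and without 50 nM replicate 1 (0.0626) or 2 (0.119), and the second in 11 of 19, among them those without DMSO replicate 2 or 3, 25 nM replicate 1 or 3, or any 1 of the 50 nM replicates (adjusted p = 0.0543 to 0.129). Its 25 nM value was 0.03 without DMSO replicate 1. POLG shares 7.66% of its exon bases with FANCI on the opposite strand, at 9.42 FPKM on average.

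Of the nuclear regulators, PPRC1 was called different between the doses, and NRF1 and ESRRA were not. PPRC1 (ENSG00000148840, chr10:102132994-102150331, plus strand), the coactivator, stood at 6.12, 5.75 and 6.24 FPKM in DMSO, 4.70, 4.37 and 4.42 FPKM at 25 nM, and 5.95, 6.04 and 5.73 FPKM at 50 nM. The 25 nM libraries were below all others, and those of 50 nM and DMSO overlapped. The log2 fold change was -0.42 ± 0.052 (adjusted p = 0.000212) at 25 nM and -0.03 (adjusted p = 0.644) at 50 nM, and 0.39 ± 0.052 (adjusted p = 0.000935) between the doses. Under both scalings by fragment totals and with the length trend removed, the 50 nM value was above 0, at 0.04 to 0.09, and was not called.

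NRF1 (ENSG00000106459, chr7:129611714-129757082, plus strand), the transcription factor named above for its palindrome, stood at 4.12, 4.37 and 4.67 FPKM in DMSO, 3.33, 3.79 and 3.34 FPKM at 25 nM, and 3.95, 4.05 and 3.82 FPKM at 50 nM. The 3 groups did not overlap, with 25 nM lowest and 50 nM between. Its log2 fold change was -0.32 ± 0.069 (adjusted p = 0.00376) at 25 nM, -0.15 ± 0.069 (adjusted p = 0.0867) at 50 nM and 0.17 ± 0.069 (adjusted p = 0.0818) between the doses. The last value was called under both scalings by fragment totals (0.27 and 0.29), with the length trend removed (0.24) and without 25 nM replicate 2 (0.23, adjusted p = 0.0319).

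ESRRA (ENSG00000173153, chr11:64305572-64316743, plus strand), the orphan receptor that partners with PGC-1 coactivators, stood at 11.9, 11.4 and 11.1 FPKM in DMSO, 10.6, 10.7 and 12.1 FPKM at 25 nM, and 12.8, 11.6 and 11.3 FPKM at 50 nM. All 3 groups overlapped. The log2 fold changes were -0.04 ± 0.066 (adjusted p = 0.597) at 25 nM and 0.05 ± 0.066 (adjusted p = 0.508) at 50 nM. Scaled by fragment totals without mitochondrial fragments, ESRRA was called higher at 50 nM (0.17, adjusted p = 0.0442). Between the doses its log2 fold change was 0.10 (adjusted p = 0.282), and it was called higher under both scalings by fragment totals (0.20 and 0.22, adjusted p = 0.0495 and 0.0334) and with the length trend removed (0.17, adjusted p = 0.0458). It overlaps TRMT112, a methyltransferase cofactor gene of the opposite strand at 65.1 FPKM on average, over 9.37% of its exon bases.

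**Figure D2:**
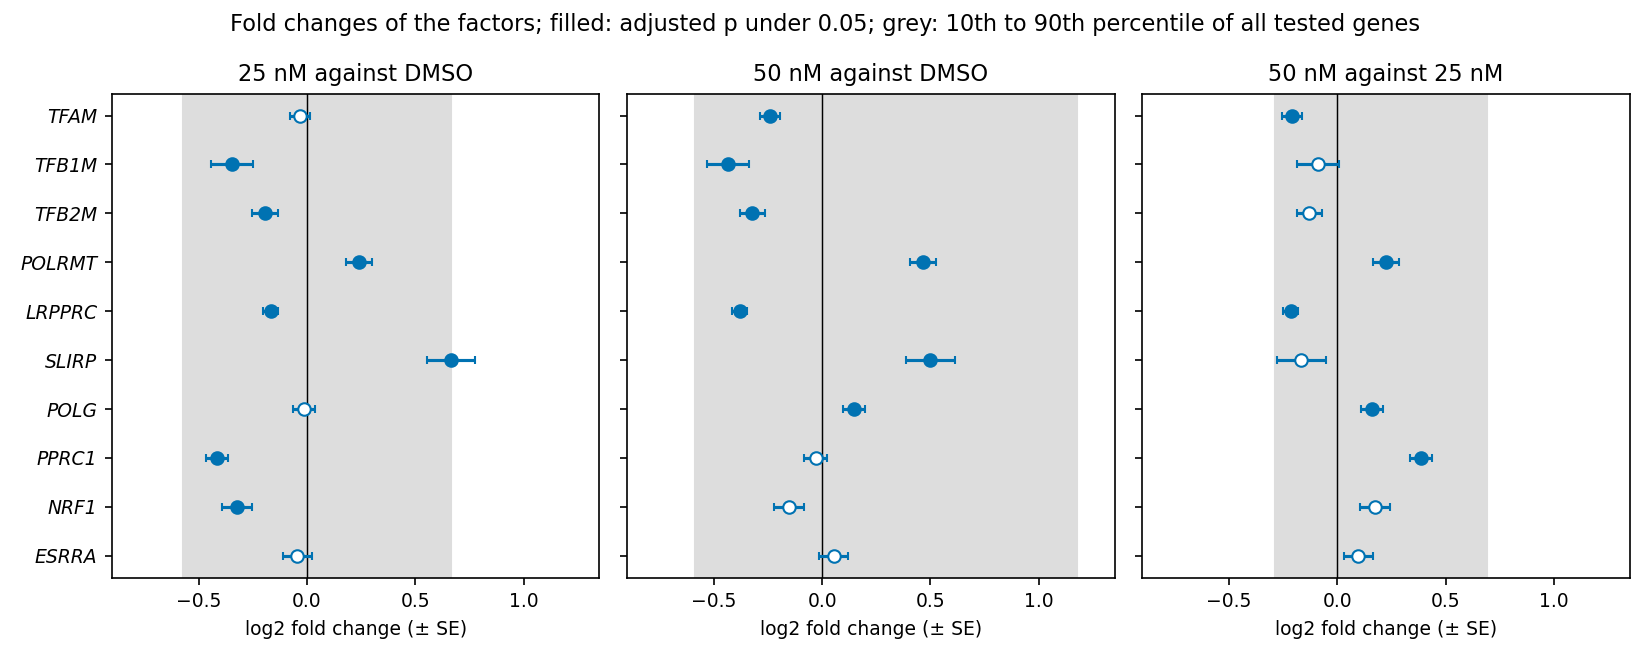
Log2 fold change of each gene (points, with SE whiskers) in the 3 comparisons, filled where the adjusted p is under 0.05 and open otherwise, with the span from the 10th to the 90th percentile of the 15541 genes tested in grey. In the 50 nM panel POLRMT (0.47) and SLIRP (0.50) lie on the right and TFB1M (-0.43) and LRPPRC (-0.38) on the left, all inside the grey span.

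In order of level per gene length, LRPPRC and TFAM had the highest means of the 10 in all 3 groups and NRF1 the lowest. In DMSO, LRPPRC (40.2 FPKM), TFAM (19.5), ESRRA (11.5) and SLIRP (9.81) each stood apart from the next. POLRMT (9.39 FPKM), TFB2M (9.03) and POLG (8.09) overlapped their neighbours in that order, as did PPRC1 (6.04) and TFB1M (5.75). At 25 nM TFAM (19.1 FPKM) overlapped SLIRP (15.7), ESRRA (11.15) overlapped POLRMT (11.12), POLG (8.01) overlapped TFB2M (7.86) and TFB1M (4.52) overlapped PPRC1 (4.499). At 50 nM SLIRP (13.96 FPKM), POLRMT (13.02) and ESRRA (11.9) overlapped their neighbours in that order, and TFB1M (4.24) overlapped NRF1 (3.94) at the bottom.

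Beside these factors, the mitochondrial transcripts themselves took a larger share of fragments at both doses, and mRNAs and rRNAs differed in how that share went with dose. Each of the 13 protein-coding genes was counted as 1 mRNA, although MT-ND4L and MT-ND4 share a transcript, as do MT-ATP8 and MT-ATP6. The 13 mRNAs took 1.66%, 1.65% and 1.45% of fragments in the DMSO libraries, 2.16%, 2.45% and 3.01% in those of 25 nM, and 3.98%, 3.54% and 4.76% in those of 50 nM. The 2 rRNAs took 0.979%, 0.974% and 0.87% in DMSO, 1.65%, 1.69% and 2.09% with 25 nM, and 1.75%, 1.65% and 2.06% with 50 nM. The mRNA share thus stepped up with each dose without overlap, while the rRNA shares of the 2 doses overlapped (exact two-sided permutation test, p = 1). The ratio of mRNA to rRNA fragments was 1.68 ± 0.0177 (SD, n = 3) in DMSO, lower at 25 nM at 1.40 ± 0.078 and higher at 50 nM at 2.24 ± 0.0849. Each of these 3 groups stood apart from the others, and the exact permutation p was 0.1 for each pair, the smallest that 20 splits of 6 libraries allow. In a bulk sample more cells with abundant mitochondrial RNA, more of it per cell and less of other RNA cannot be told apart. RNA selection is not given, and its part in the shares and in the mRNA to rRNA ratio was not tested.

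**Figure D3:**
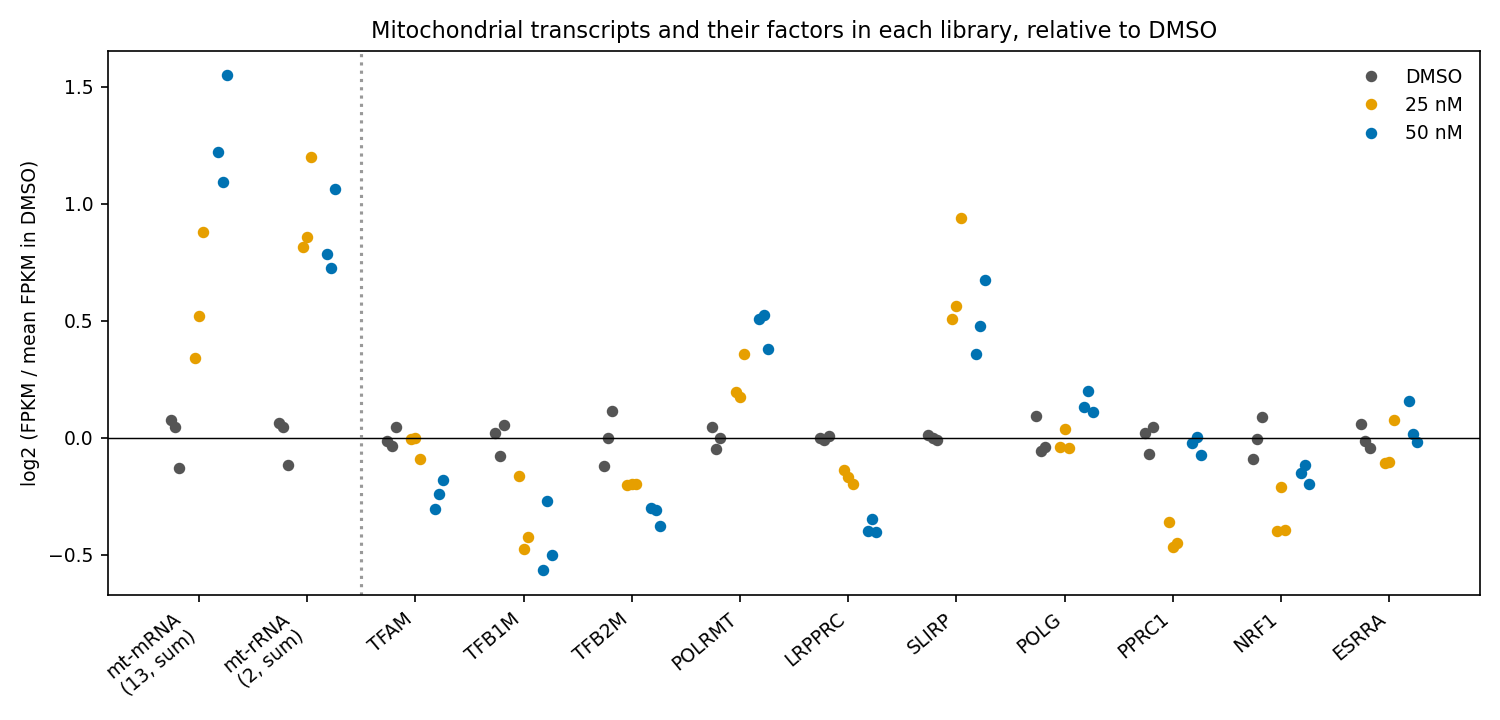
Log2 of FPKM over the DMSO mean in each library for the summed mitochondrial mRNAs and rRNAs (left of the dotted line) and the 10 nuclear genes. The summed mRNAs reach 1.09 to 1.55 at 50 nM, whereas TFAM (-0.30 to -0.18) and LRPPRC (-0.40 to -0.35) are below 0 in the same libraries.

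At 50 nM, where mitochondrial mRNAs were highest, the means of TFAM, TFB2M and LRPPRC were at their lowest and that of POLRMT at its highest. Between the doses TFB2M was not called, and POLRMT lost its call in 5 of 19 alternatives. TFAM and LRPPRC lost theirs with libraries scaled by fragment totals without mitochondrial fragments (both -0.09). For SLIRP and the summed FPKM of the rRNAs the mean was higher at 25 nM than at 50 nM (15.7 against 13.96 FPKM, and 12721 against 11843 FPKM), with the SLIRP difference not called and an exact permutation p of 0.5 for the rRNAs. Within the 25 nM group replicate 3 had both the highest SLIRP (18.8 FPKM) and the highest mitochondrial share (5.11% of fragments, against 3.82% and 4.16%). Without that library SLIRP remained called at 25 nM and the mitochondrial share was 1.46 percentage points above DMSO, against 1.83 with it.

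Single mitochondrial mRNAs followed different courses. MT-ND4, a complex I subunit, stood at 1877, 1879 and 1588 FPKM in DMSO, 3032, 3526 and 4526 FPKM at 25 nM, and 5568, 4815 and 7188 FPKM at 50 nM. The groups did not overlap, and its log2 fold change was 1.04 ± 0.17 (adjusted p = 0.00116) at 25 nM and 1.70 ± 0.17 (adjusted p = 4.6e-05) at 50 nM. MT-ND3, another complex I subunit, stood at 1554, 1518 and 1417 FPKM in DMSO, 777, 832 and 1133 FPKM at 25 nM, and 2046, 2022 and 2539 FPKM at 50 nM. It was below DMSO at 25 nM (-0.73, adjusted p = 0.00224) and above it at 50 nM (0.55, adjusted p = 0.00779), although with the length trend removed the latter was -0.20 (adjusted p = 0.251). Of the 13 mRNAs, counted by gene, 5 were called higher at 25 nM (MT-CO1 1.06, MT-ND4, MT-ND4L 0.89, MT-CO2 0.78 and MT-ND6 0.48 on the log2 scale) and MT-ND3 alone was called lower. MT-ND4 and MT-ND4L are not separate transcripts in these counts. Of all genes, 26.3% were called higher and 25.8% lower at 25 nM, and 29.2% and 31.5% at 50 nM. Between the doses these shares were 14.7% and 18.8%. At 50 nM 11 of the 13 mRNAs were called higher and none lower, from MT-ND1 (0.51) to MT-ND4. MT-ATP8 (1.34 at 50 nM and 1.59 between the doses) was called at a low level. It stood at 2.32, 3.25 and 3.81 FPKM in DMSO, where MT-ATP6, on the same transcript, had a mean of 908 FPKM. How reads over both genes were assigned is not given, and its part in the MT-ATP8 values was not tested. MT-ND5 (0.12, adjusted p = 0.452) and MT-ND6 (-0.06, adjusted p = 0.779) were not called, and with the length trend removed MT-ND6 was called lower (-0.64, adjusted p = 0.0055). The median over the 13 was 0.29 at 25 nM, 1.29 at 50 nM and 0.78 between the doses, where 10 were higher and MT-ND6 was lower (-0.54, adjusted p = 0.0307). Of those 10 calls between the doses, MT-CYB, MT-ND1 and MT-ND4 were lost without 25 nM replicate 1 or 2 or 50 nM replicate 3, and MT-ND4L without 25 nM replicate 1 (adjusted p = 0.0507 to 0.0606), while MT-CO1 was called higher without 25 nM replicate 3 (0.35, adjusted p = 0.0315). Of the rRNAs, MT-RNR1 had 0.88 and MT-RNR2 0.98 at 25 nM, and 0.61 and 0.91 at 50 nM, all called. Between the doses MT-RNR1 was called lower when 50 nM replicate 3 was left out (-0.38, adjusted p = 0.0435). With the length trend removed, MT-ND1 (0.16), MT-ATP8 (0.39) and MT-RNR1 (0.25) were no longer called at 50 nM, nor were MT-ND4L (0.52) and MT-ND6 (0.18) at 25 nM and MT-ND4L (0.34) between the doses, whereas MT-RNR1 was then called lower at 50 than at 25 nM (-0.39, adjusted p = 0.0174). The MT-ND1 call at 50 nM was also lost without DMSO replicate 3 (0.43, adjusted p = 0.0735) or 50 nM replicate 3 (0.36, adjusted p = 0.066).

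MT-ND6 is the mRNA encoded on the opposite strand from the other 12. Its share of mitochondrial mRNA fragments was 1.68%, 1.74% and 1.70% in DMSO, 1.55%, 1.42% and 1.43% with 25 nM, and 0.663%, 0.636% and 0.712% with 50 nM. The share was lower with each dose and the groups did not overlap (exact permutation p = 0.1 for each pair, the smallest possible). In FPKM it stood at 517 ± 42.1 in DMSO, 725 ± 113 at 25 nM and 504 ± 110 at 50 nM. Its call at 25 nM was lost without any 1 of the DMSO replicates (adjusted p = 0.0578, 0.0522 and 0.0974) and without 25 nM replicate 3 (0.122), and that between the doses without 25 nM replicate 2 (0.053) or 3 (0.0986) or 50 nM replicate 1 (0.0919) or 2 (0.0831) and under both scalings by fragment totals (-0.44 and -0.41, adjusted p = 0.0587 and 0.0795). Without a stated strandedness, reads from opposite strands at this locus cannot be told apart. RNA selection is not given either, and its part in the MT-ND6 share was not tested.

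**Figure D4:**
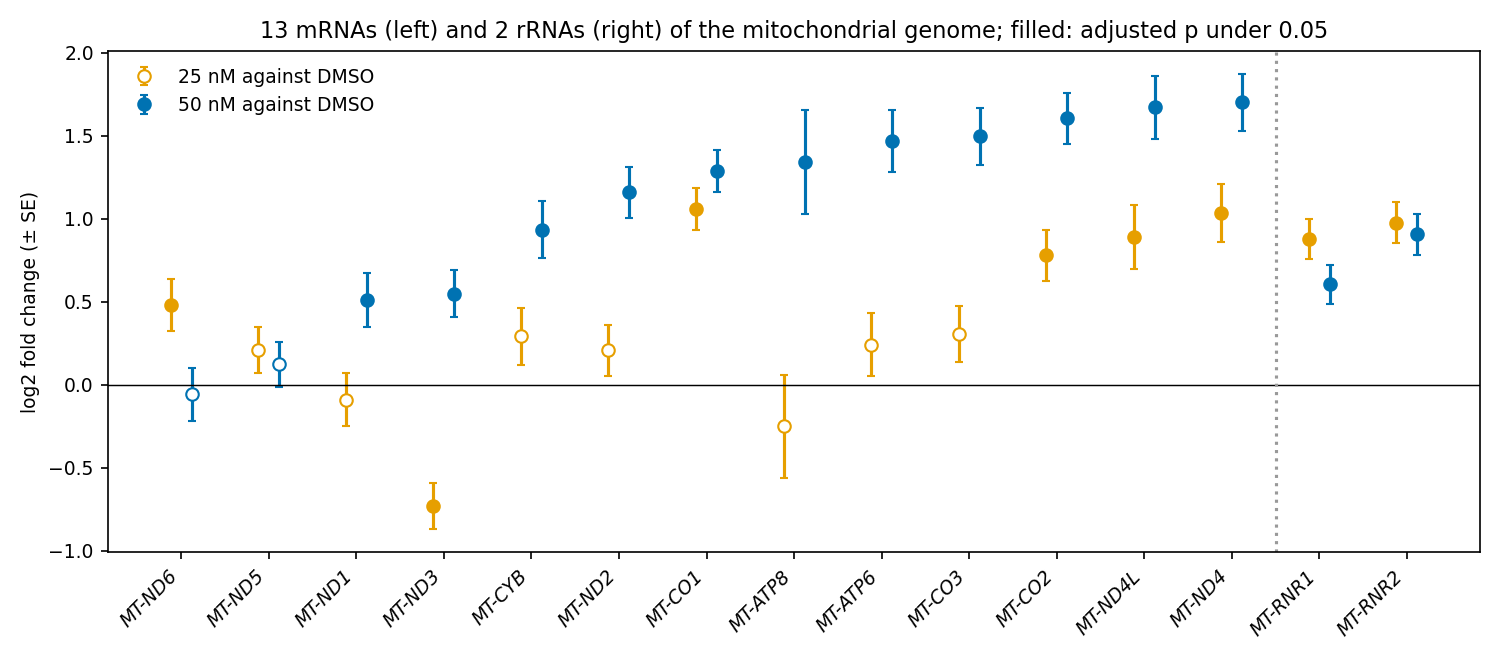
Log2 fold change against DMSO (points, with SE whiskers) of the 13 mitochondrial mRNAs, ordered by their 50 nM value, and of the 2 rRNAs, at 25 nM (orange) and 50 nM (blue), filled where the adjusted p is under 0.05. The mRNAs spread from -0.06 to 1.70 at 50 nM, and MT-ND3 is the mRNA called below DMSO at 25 nM.

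The other genes of mitochondrial DNA upkeep and RNA metabolism were taken from 5 lists and moved in both directions. Of 20 genes for replication and the nucleoid, 6 were called higher and 5 lower at 25 nM, and 7 and 5 at 50 nM, near the 52.0% and 60.7% of all genes called, with medians of 0.10 and 0.04 beside 0.02 and 0.0049 over all genes. POLG2, the accessory subunit of POLG, was higher at 50 nM (5.12 ± 0.122 against 9.62 ± 0.606 FPKM, log2 fold change 0.90, adjusted p = 4.4e-06) and higher there than at 25 nM (0.63), and the nuclease EXOG rose by 0.66 on the log2 scale. At 25 nM the nucleoid-associated ATPase ATAD3A (0.66) and the single-strand binding protein SSBP1 (0.40) were higher. The helicase TWNK, listed as C10orf2 (-0.57), and the pyrimidine nucleotide carrier SLC25A36 (-0.69) were lower at 25 nM, SLC25A36 also at 50 nM (-0.55) with the flap nuclease FEN1 (-0.61). Between the doses 3 were higher, among them EXOG (0.54), and 3 lower, among them FEN1 (-0.32) and the topoisomerase TOP1MT (-0.16). Of all genes, 14.7% were called higher between the doses and 18.8% lower. Under the scalings by fragment totals neither FEN1 nor TOP1MT (-0.060 and -0.036) was called there, and TOP1MT (-0.12 to -0.17) was also lost with any 1 library left out except 25 nM replicate 2. FEN1, SSBP1 and SLC25A36 overlap other genes on their own strand. TWNK, and from the lists below MTERF4, TEFM, TRMT5, MRM3 and PERM1, overlap genes on the opposite strand. Strandedness is not known, and the part of reads from such genes was not tested.

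Of 6 genes for elongation, termination and attenuation, 2 were higher and 2 lower at 25 nM, and 3 higher and none lower at 50 nM, where 52.0% and 60.7% of all genes were called, with medians of -0.05 and 0.17. The ribosomal protein MRPL12, which also binds POLRMT, had a log2 fold change of 0.64 at 25 nM and 0.62 at 50 nM, the latter not called with the length trend removed (0.30). The elongation factor TEFM was higher at 50 nM (0.31, adjusted p = 0.0331), a call lost without DMSO replicate 1 (0.30) or 2 (0.25) or 50 nM replicate 1 (0.33) or 3 (0.24). At 25 nM MTERF3 (0.43) was higher, and MTERF4 (-0.42) and MTERF1 (-0.32) were lower, members of the termination factor family, with the MTERF1 call lost without DMSO replicate 2 (-0.29) and that of MTERF4 with the length trend removed (-0.21). TEFM (0.34) and MTERF4 (0.24) were higher at 50 than at 25 nM. The TEFM call was lost without DMSO replicate 1 (0.34), 25 nM replicate 2 (0.31) or 3 (0.30), or 50 nM replicate 1 (0.36) or 3 (0.27), and that of MTERF4 without DMSO replicate 3, 25 nM replicate 1 or 2, or any 1 of the 50 nM replicates (0.22 to 0.25).

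Of 23 genes for RNA processing, polyadenylation and decay, 10 were called higher and 4 lower at 25 nM, with a median of -0.06 that differs in sign from the balance of calls, and 8 and 8 at 50 nM, with a median of 0.05. Of all genes 26.3% were called higher and 25.8% lower at 25 nM, and 29.2% and 31.5% at 50 nM. TRMT10C, a subunit of the RNase P that frees tRNAs from the precursors, stood at 7.96 ± 0.379 FPKM in DMSO, then 3.92 ± 0.468 at 25 nM and 4.13 ± 0.334 at 50 nM. Its log2 fold changes were -1.01 (adjusted p = 4.5e-05) and -0.93 (adjusted p = 3.3e-05). The other subunits of that enzyme, named after their values were seen, did not fall. HSD17B10 had 0.41 (adjusted p = 0.00775) at 25 nM and 0.23 (adjusted p = 0.0751) at 50 nM. PRORP, listed as KIAA0391, had 0.55 (adjusted p = 0.031) and 0.67 (adjusted p = 0.0104), from 0.392 FPKM in DMSO. FASTKD5, needed for maturing mRNAs that no tRNA flanks, was lower (-0.62 and -0.54) but overlaps another gene on its own strand, and FASTK, whose mitochondrial isoform is known to be required for MT-ND6 mRNA, was higher (0.56 and 0.75). Between the doses FASTKD1 (0.51) was higher and GRSF1 (-0.18) and PDE12 (-0.24) were lower, the last 2 not called under either scaling by fragment totals. PTCD1 was called higher at both doses (0.72 and 0.69), but it overlaps another gene on its own strand, stood at 0.279 ± 0.0366 FPKM in DMSO, and lost both calls without any 1 of the DMSO replicates or without 50 nM replicate 2 or 3 (0.62 to 0.79). The DMSO means of PTCD1 and PRORP lie below the 0.5 FPKM of the filter. Both genes needed treated libraries to pass it, so their calls are not independent of the filter.

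Of 20 genes for rRNA and tRNA modification, 10 were called higher and 2 lower at 25 nM and 8 and 7 at 50 nM, with medians of 0.21 and 0.05, where 52.0% and 60.7% of all genes were called. By direction, all genes were called higher in 26.3% and lower in 25.8% at 25 nM, and in 29.2% and 31.5% at 50 nM. QTRT1, a subunit of the enzyme that places queuine in tRNA, stood at 5.27 ± 0.168 FPKM in DMSO, 8.76 ± 0.466 at 25 nM and 12.1 ± 0.621 at 50 nM (log2 fold changes 0.72 and 1.19). METTL17, a small-subunit assembly factor, had 0.69 and 1.13. The tRNA methyltransferase TRMT5 was lower at both doses (-0.68 and -0.73), TRIT1 at 25 nM (-0.17, lost without DMSO replicate 1 (-0.17) or 3 (-0.16) or 25 nM replicate 1 (-0.14)), and the rRNA methyltransferase MRM2, listed as FTSJ2, at 50 nM (-0.44). Between the doses 7 were higher and 2 lower, where 33.5% of all genes were called (14.7% higher and 18.8% lower). Among them QTRT1 (0.46) and METTL17 (0.43) were higher, and ALKBH1 (-0.55) and the rRNA methyltransferase MRM3, listed as RNMTL1 (-0.24), were lower. The last call was lost with any 1 library left out except 25 nM replicate 2 (-0.16 to -0.25) and under both scalings by fragment totals (-0.14 and -0.12).

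Of 20 nuclear regulators, 18 passed the filter on low values, and 2 were called higher and 8 lower at each dose, with medians of -0.16 and -0.22. In both directions together the calls lay near the 52.0% and 60.7% of all genes called. By direction, 26.3% of all genes were called higher and 25.8% lower at 25 nM, and 29.2% and 31.5% at 50 nM. The nuclear corepressor NRIP1 stood at 7.24 ± 0.205 FPKM in DMSO, 3.45 ± 0.703 at 25 nM and 3.44 ± 0.191 at 50 nM, log2 fold changes of -1.07 (adjusted p = 0.000179) and -1.05 (adjusted p = 0.000112), and overlaps another gene on its own strand. The fatty acid receptor PPARA was lower by a log2 fold change of -0.89 and -0.91. PPARGC1A, the founding member of the coactivator family of PPRC1, was named after its values were seen and had -0.63 (adjusted p = 0.0118) and -0.66 (adjusted p = 0.00808), from 0.859 FPKM in DMSO. GABPB2, a subunit of the ETS factor GABP, was higher at both doses (0.49 and 0.82), and PERM1 at 50 nM (0.75, lost without DMSO replicate 1 (0.69) or 50 nM replicate 2 (0.68) or 3 (0.61)). PERM1 had a mean of 0.478 FPKM in DMSO, below the 0.5 FPKM of the filter. It needed treated libraries to pass, so its call, included in the count above, is not independent of the filter. The lysosomal regulator TFE3 was called higher at 25 nM (0.12), a call lost without DMSO replicate 1 or 3 or any 1 of the 25 nM replicates (0.09 to 0.13). Between the doses none was higher and 2 were lower, MYC (-0.48) and YY1 (-0.11), where 14.7% of all genes were called higher and 18.8% lower. The YY1 call was lost without any 1 of the DMSO replicates, 25 nM replicate 1 or 2, or 50 nM replicate 1 or 2 (-0.10 to -0.12), and under either scaling by fragment totals.

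Across the 9 libraries, TFAM was most like DEK (Pearson r = 0.99), MOB1A (0.99) and SGCB (0.987), and LRPPRC was most like EXT1 (0.996), FSTL1 (0.996) and COPA (0.995), out of 6766 coding genes with a mean of 5 FPKM or more. These correlations span 3 groups of libraries that differ in many genes: 525 genes had an r over 0.9 with TFAM and 1156 with LRPPRC.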

How the data were processed

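RNA-seq of 9 ACHN libraries was deposited as FPKM for 30673 genes, in a table named for read counts, and as log2 FPKM for the 18859 genes above 0 in all 9 libraries, with position and length; the authors' log2 values equal the log2 of the deposited FPKM within 0.005. Per the submitters' processing notes the build is hg38; aligner, counter and annotation release are not given in the sources used here. For the 18859 genes with a length, FPKM times gene length gave whole multiples of 1 step per library for 100% of genes (tolerance 0.01). These recovered fragments served for depth, shares and scalings, which thus leave out the other genes of the FPKM table. Of that table, 23641 to 24222 genes were above 0 in the DMSO libraries and 25482 to 26388 in those of 50 nM. The effect of the omission was not tested. The library scale that the step implies is not the fragment total. It was 24123379 for the 25205782 fragments of 25 nM replicate 3, and 25851341 for the 24365472 fragments of 50 nM replicate 1. How the authors set that scale is not given in the sources used here.

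Genes that reached 0.5 FPKM in 3 or more libraries (15541, all 10 members among them) were fitted with limma 3.58.1 (lmFit, eBayes with trend and robust) in R 4.3.3 on log2(FPKM + 0.1), which understates changes of low genes, with group as the only covariate over all 9 libraries. Adjustment over all genes tested followed Benjamini and Hochberg. Shares and ratios were compared by exact two-sided permutation. On simulated data with 200 changed genes of the 15541, the fit recovered, for log2 changes of 0.5, 1 and 2, 55.6%, 82.3% and 86.4% at 25 nM against DMSO (3.27% of calls false), 55.4%, 74.5% and 95.2% at 50 nM against DMSO (4.58%), and 63.6%, 80.6% and 88.2% at 50 against 25 nM (5%). Far fewer genes changed in the simulation than the 52.0%, 60.7% and 33.5% called in the data, so these rates need not hold for the data.

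The members and the gene lists were chosen with earlier results of these data known. Named are all members, the mitochondrial mRNAs and rRNAs, genes overlapping a member, the 3 most like TFAM and LRPPRC, and from each list and comparison up to 2 called genes with the largest rise and 2 with the largest fall. Alternatives were pseudocounts of 1 and 0.01, no filter, 3 scalings (2 fragment totals and TMM), the length trend removed (lowess, span 0.3), 6 libraries, a replicate block, limma without trend and robust, and each library left out.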

Additional observations from a re-analysis of the deposited data

How the results depend on the processing

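Of 361 tests of called members under alternatives (19 for each gene and comparison), 331 kept direction and call, 29 kept direction and lost the call, and 1 reversed (LRPPRC, below). At 50 against 25 nM the members called were 5, and 3 with only the 6 libraries of those groups, 6 with fragment totals including mitochondrial fragments and 7 with the length trend removed; leaving out each library gave 3 to 5. The genes called there were 5205, and 3417 to 5829 with a library left out, the lowest without 50 nM replicate 1. Values that changed sign with the length trend removed were, at 25 nM, TFAM 0.031, LRPPRC 0.040, POLG 0.051, MT-ATP6 -0.029 and MT-ND2 -0.023, and at 50 nM, PPRC1 0.092, MT-ND3 -0.20 and MT-ND5 -0.024. With fragment totals including and without mitochondrial fragments, those at 50 nM were PPRC1 0.040 and 0.090 and MT-ND6 0.014 and 0.066, and those between the doses TFB1M 0.0080 and 0.031, MT-ND5 0.012 and 0.036, MT-RNR2 0.030 and 0.054, and, without mitochondrial fragments, YY1 0.0079. With 1 library left out the range crossed 0 for POLG at 25 nM (-0.041 to 0.032, highest without DMSO replicate 1), MT-ND1 at 25 nM (-0.23 to 0.033, highest without 25 nM replicate 1), MT-ND5 at 50 nM (-0.024 to 0.25, lowest without 50 nM replicate 3) and MT-ND6 at 50 nM (-0.22 to 0.078, highest without 50 nM replicate 2). Between the doses it did so for TFB1M (-0.17 to 0.0044, highest without 25 nM replicate 1), MT-ND5 (-0.23 to 0.040, highest without 50 nM replicate 2) and MT-RNR2 (-0.17 to 0.053, highest without 25 nM replicate 3). Apart from the removal of the length trend itself and of single libraries, the cause was not tested. Same-numbered libraries did not deviate together (r from -0.05 to 0.08 over 9 pairs, and 0 libraries were most like their own number in both other groups), so the numbers give no pairing; with a replicate block 7640, 9107 and 4587 genes and 7, 6 and 4 members were called at 25 nM, 50 nM and between the doses. Within replicate numbers the block left the mitochondrial share differences at 1.83, 3.40 and 1.57 points and the log2 mRNA to rRNA ratio differences at -0.27, 0.41 and 0.68. Of the members, depth limits TFB1M most, and with 3 libraries a group no exact permutation p can pass 0.05.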

Other observations

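The single mitochondrial tRNA gene of the log2 FPKM table, MT-TP, stood at 1091, 1170 and 990 FPKM in DMSO, 1651, 1775 and 1981 FPKM at 25 nM, and 2161, 2003 and 2603 FPKM at 50 nM, with a log2 fold change of 0.73 (limma adjusted p = 0.000551) at 25 nM and 1.05 (adjusted p = 4.3e-05) at 50 nM. It lies on the same strand as MT-ND6. With strandedness and RNA selection not given, reads of the tRNA, of precursors and of the opposite strand cannot be told apart here. The 9 nuclear pseudogenes of mitochondrial genes held fragments equal to 0.189% ± 0.00907 (SD, n = 3) of those of the mitochondrial genome in DMSO, 0.135% ± 0.0104 at 25 nM and 0.243% ± 0.00868 at 50 nM.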
